A study of Mus musculus with 12 samples.

Results

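The genes described here are *Actc1* (cardiac α-actin) and 9 transcripts of immature or denervated muscle fibres, namely *Myh3*, *Myh8*, *Chrna1*, *Chrnd*, *Chrng*, *Myog*, *Myod1*, *Runx1* and *Ncam1*. They are 10 of the 22273 entries of the gastrocnemius expression tables and were matched by gene symbol. The set was chosen by the levels and changes that these same gastrocnemius libraries gave, which are therefore a description, with no test. *Actc1* leads the set.

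Sarcomeres of embryonic and newborn skeletal muscle are built with cardiac actin and with the embryonic and perinatal myosin heavy chains, which adult fibres largely replace with skeletal α-actin and adult myosins. Before innervation, acetylcholine receptors containing the γ subunit lie all along the fibre. Nerve contact confines receptors to the synapse and exchanges γ for ε. When a fibre loses its nerve, it transcribes receptor subunits, *Myog*, *Myod1*, *Runx1* and *Ncam1* again along its length. The glucocorticoid receptor (GR), encoded by *Nr3c1*, is the nuclear receptor that corticosterone activates in mouse muscle, where a sustained excess of the hormone leads to fibre atrophy.

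RNA was sequenced from gastrocnemius, liver and gonadal white adipose tissue (WAT) of male C57BL/6J mice that were 8 weeks old at the start. GRfl/fl mice carry floxed *Nr3c1* alleles without Cre, and GR-mKO mice carry the same alleles with Cre driven by the *Acta1* promoter. Cre removes exon 3 in muscle fibres, where that promoter is active, and leaves *Nr3c1* intact in other cells of the muscle. For 4 weeks, mice of each genotype received 100 µg/mL corticosterone (CORT) or no added hormone (vehicle) in their drinking water. Ethanol was present at 1% under both treatments. Each of the 12 libraries is 1 pool of RNA from 3 mice, so each tissue has 1 library per group, there are no replicates, and the variation between mice cannot be estimated. Levels are counts scaled to the library total (CPM), and the 4 gastrocnemius libraries hold 19394572 to 20357253 estimated counts each. Changes are on the log2(CPM + 0.5) scale, and a gene is said to have risen or fallen only where its change reached 2-fold. The 95% intervals beside changes (exact Clopper-Pearson, without the pseudocount) and levels (Wilson) cover counting error only.

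*Nr3c1* remained at 41.2% (vehicle) and 39.2% (CORT) of its GRfl/fl level in GR-mKO gastrocnemius, against 81.5% to 109.7% in liver and WAT. In bulk tissue, fewer cells of a type and less RNA per cell cannot be told apart. Of 9198 gastrocnemius genes with a mean of at least 5 CPM, 95 (1.03%) were listed at exactly 0 in at least 1 library. Each entry holds the estimate under 1 retained transcript of the gene, and a 0 in these tables is therefore reported only as a listed value.

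The 250 bases upstream of the RefSeq transcription start (GRCm38.p6) are printed for *Actc1*, *Chrna1*, *Chrng* and *Myog*, 4 of the 7 genes of the set that had such a window. Capitals mark the CArG box, the serum response factor motif of actin promoters, in *Actc1*, and E-boxes (CANNTG, the motif bound by Myod1 and myogenin and read the same on both strands) in the other 3. The windows are chr2:114052876-114053125 (minus strand) for *Actc1*, chr2:73580339-73580588 (minus strand) for *Chrna1*, chr1:87205561-87205810 (plus strand) for *Chrng* and chr1:134289754-134290003 (plus strand) for *Myog*.
Actc1: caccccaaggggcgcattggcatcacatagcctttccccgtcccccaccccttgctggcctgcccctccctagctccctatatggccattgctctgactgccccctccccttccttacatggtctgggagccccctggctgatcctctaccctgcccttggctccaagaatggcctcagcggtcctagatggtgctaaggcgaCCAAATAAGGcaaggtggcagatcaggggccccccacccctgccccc
Chrna1: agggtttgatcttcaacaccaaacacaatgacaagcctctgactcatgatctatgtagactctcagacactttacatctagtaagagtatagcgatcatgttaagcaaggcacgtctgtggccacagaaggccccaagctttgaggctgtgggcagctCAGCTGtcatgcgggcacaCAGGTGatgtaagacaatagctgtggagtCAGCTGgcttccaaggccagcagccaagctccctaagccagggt
Chrng: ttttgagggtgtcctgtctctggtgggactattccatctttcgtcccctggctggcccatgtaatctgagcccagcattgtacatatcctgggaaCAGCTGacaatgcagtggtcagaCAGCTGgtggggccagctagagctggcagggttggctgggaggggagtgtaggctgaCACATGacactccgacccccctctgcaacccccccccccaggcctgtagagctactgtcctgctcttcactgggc
Myog: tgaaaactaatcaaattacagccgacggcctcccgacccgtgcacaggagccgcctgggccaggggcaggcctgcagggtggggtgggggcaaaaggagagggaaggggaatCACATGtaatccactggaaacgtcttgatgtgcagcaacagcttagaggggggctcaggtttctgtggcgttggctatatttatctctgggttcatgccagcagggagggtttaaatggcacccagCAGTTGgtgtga

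The *Actc1* window held 1 CArG box, CCAAATAAGG, at bases -47 to -38 from the start and no CANNTG. A CArG box was found on either strand in 1.47% of the 32851 promoter windows of the same length. The *Chrna1* and *Chrng* windows each held 3 E-boxes, and 12.2% of windows held at least 3. In each of them 2 of the 3 had the letters CAGCTG, a form of CANNTG present in 13.0% of windows. In *Chrna1* these lay at bases -92 to -87 and -44 to -39, and in *Chrng* at -155 to -150 and -132 to -127. *Myog* held 2 E-boxes, at -138 to -133 and -12 to -7, as did at least 2 in 31.8% of windows. Windows were found for 7 of the 10 genes, 8 windows in all, and none of the 8 held the GR hexamer AGAACA on either strand (16.1% of windows) or the palindrome of GNACA and TGTNC spaced by 3 bases (0.387%). *Chrnd*, *Myod1* and *Ncam1* had no window. The *Actc1* and *Chrng* windows lie inside the annotated spans of these genes given below, and the *Myog* window overlaps the start of its span. The RefSeq start of these genes is therefore not their outermost annotated start, and bases outside the windows were not searched. These matches describe letters in the window and say nothing of binding.

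*Actc1* encodes the thin-filament actin of heart and fetal skeletal muscle (chromosome 2, 114047282 to 114053548, GRCm38; values are listed under ENSMUST00000090269, a transcript of 7 exons). Its level in GRfl/fl muscle was 501 CPM (491 to 511) on vehicle and 25.6 CPM (23.5 to 28.0) on CORT, and in GR-mKO muscle 1312 CPM (1296 to 1328) on vehicle and 1141 CPM (1127 to 1156) on CORT. Where 4 values are given together from here on, they follow this order of libraries. Both GR-mKO libraries stood above both GRfl/fl libraries, none of the 4 counting intervals met, and CORT-treated GRfl/fl muscle stood apart at the low end. With CORT, *Actc1* fell 19.5-fold in GRfl/fl muscle, a log2 change of -4.26 (-4.42 to -4.16), which was rank 6 from the bottom of the 13543 genes above 0 in all 4 gastrocnemius libraries. In GR-mKO muscle the log2 change with CORT was -0.20 (-0.23 to -0.17), which did not reach 2-fold and lay close to the median of all genes, -0.10.

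Between genotypes, *Actc1* was 2.62-fold higher in GR-mKO than in GRfl/fl muscle under vehicle, a log2 change of 1.39 (1.36 to 1.42), rank 242 from the top of the 13543 genes. Under CORT it was 44.5-fold higher, a log2 change of 5.45 (5.35 to 5.61), the largest rise among those genes. Genes listed at 0 in any gastrocnemius library are outside these rankings. Among them, *Mrtfa* and *Samd4b*, listed at 0 in CORT-treated GRfl/fl muscle, had larger changes than *Actc1*. Theirs were 5.98 and 5.53 between genotypes under CORT, and -5.50 and -5.67 with CORT in GRfl/fl muscle. The comparisons share libraries: the low level in CORT-treated GRfl/fl muscle enters both the fall with CORT and the rise of GR-mKO under CORT.

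The other actins did not follow *Actc1*. *Acta1*, the skeletal α-actin of adult fibres, was at 43035, 35757, 32605 and 38416 CPM in the 4 libraries, and all 4 of its log2 changes were within 2-fold, from -0.40 to 0.24. Per kilobase of transcript, *Actc1* amounted to 1.14%, 0.0704%, 3.95% and 2.92% of *Acta1*. Cardiac actin was thus a small fraction of striated muscle actin transcripts in every library. *Acta2*, the smooth muscle actin, and *Actb*, the cytoplasmic β-actin, stayed within 2-fold in all 4 comparisons, at 114 to 153 and 432 to 624 CPM. *Actg1*, the cytoplasmic γ-actin, had 333 CPM in GRfl/fl muscle on vehicle and 109, 136 and 118 CPM in the other 3 libraries. It fell with CORT in GRfl/fl muscle (log2 change -1.61) and was lower in GR-mKO muscle under vehicle (-1.29), the opposite direction to *Actc1* in that comparison. *Actg2* was listed at 0 in 2 libraries and at no more than 1.55 CPM in the others. Short words of 31 bases show how far these transcripts can be told apart: 0.832% of those of the *Actc1* transcript occur in transcripts of other genes, and 8.94% in other *Actc1* transcripts. The share in other genes was 4.03% for *Acta1*, 1.30% for *Acta2*, 29.4% for *Actb*, 6.14% for *Actg1* and 0.767% for *Actg2*.

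**Figure D1:**
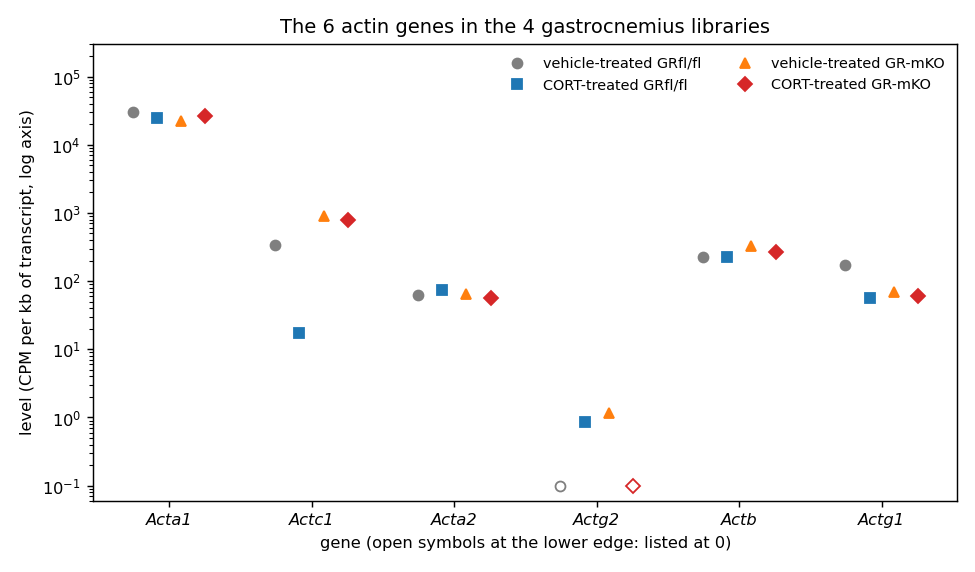
Levels of the 6 actin genes in the 4 gastrocnemius libraries, in CPM per kilobase of transcript on a log axis; each symbol is 1 library (1 pool of 3 mice) and open symbols at the lower edge are listed at 0. *Acta1* stays between 22549 and 29761 CPM per kb, while *Actc1* runs from 17.4 in CORT-treated GRfl/fl to 890 in vehicle-treated GR-mKO muscle.

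Developmental myosin heavy chains were scarce in every library. *Myh8*, the perinatal myosin heavy chain (chromosome 11, 67277124 to 67308634), was at 1.74, 1.08, 4.95 and 1.38 CPM in the 4 libraries. Vehicle-treated GR-mKO muscle was the high library and the other 3 had overlapping counting intervals. *Myh8* was higher in GR-mKO muscle under vehicle (log2 change 1.28, 0.91 to 2.08) and fell with CORT in GR-mKO muscle (-1.54, -2.50 to -1.22). The change with CORT in GRfl/fl muscle, -0.51 (-1.56 to 0.12), had an interval that included 0. Because 32.5% of the 31-base words of its transcript occur in other genes, 19.5% in the adult *Myh2*, reads of other myosins could enter this low level, and their part in it was not tested.

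*Myh3*, the embryonic myosin heavy chain (chromosome 11, 67078300 to 67102291), was listed at 0 on vehicle and at 5.11 CPM (4.19 to 6.21) on CORT in GRfl/fl muscle, and at 8.58 CPM (7.38 to 9.95) on vehicle and 0 on CORT in GR-mKO muscle. It alternated between 0 and 99.0 or 172 counts, unlike any other of the 10 genes. A listed 0 entered each comparison, so the counting intervals of *Myh3*, without the pseudocount, were bounded only on the side nearer no change. With CORT, that limit was a log2 change of 4.75 in GRfl/fl and -5.55 in GR-mKO muscle. For GR-mKO against GRfl/fl muscle, it was 5.51 under vehicle and -4.79 under CORT. The gene has 3 protein-coding transcripts, and 98.8% of the 31-base words of the listed one are shared with the others, so whether the 0 values reflect the gene or the assignment of reads among its transcripts cannot be told apart in these tables. *Myh3* is the only 1 of the 10 genes that did not pass the filter of a value above 0 in all 4 libraries.

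Muscle acetylcholine receptors are pentamers of α, β and δ subunits with γ in immature and ε in adult fibres. *Chrna1*, the acetylcholine-binding α subunit (chromosome 2, 73563215 to 73580338), was at 18.6 CPM on vehicle and 27.4 CPM on CORT in GRfl/fl muscle, and at 103 CPM on vehicle and 61.0 CPM on CORT in GR-mKO muscle. Both GR-mKO libraries lay above both GRfl/fl libraries. It was higher in GR-mKO muscle by a log2 change of 2.44 (2.31 to 2.64) under vehicle, rank 31 from the top of the 13543 genes, and by 1.14 (1.00 to 1.30) under CORT. Within genotypes it changed by less than 2-fold, by 0.55 (0.37 to 0.76) with CORT in GRfl/fl and by -0.75 (-0.86 to -0.65) in GR-mKO muscle.

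*Chrng*, the immature γ subunit, and *Chrnd*, the δ subunit, are neighbours on chromosome 1, 4.6 kb apart on the same strand (87204657 to 87212694 and 87190607 to 87200070). *Chrng* was at 0.754 CPM on vehicle and 0.0515 CPM (1 count) on CORT in GRfl/fl muscle, and at 2.31 CPM on vehicle and 0.639 CPM on CORT in GR-mKO muscle. Its highest and lowest libraries were those of *Chrnd* and *Runx1*, at levels near the detection limit. *Chrng* was higher in GR-mKO muscle under vehicle by a log2 change of 1.16 (0.73 to 2.55) and under CORT by 1.05 (0.90 to 9.04), and it fell with CORT by 1.19 in GRfl/fl and by 1.30 in GR-mKO muscle. The intervals for the 2 changes that use the single count reach beyond 9 on the log2 scale. With a pseudocount of 1 CPM, 3 of the 4 changes of *Chrng* were within 2-fold, at -0.74 with CORT in GRfl/fl muscle and 0.91 and 0.64 between genotypes under vehicle and CORT. Per kilobase, *Chrng* was 4.60%, 0.233%, 11.0% and 2.04% of *Chrne*, the adult ε subunit, in the 4 libraries. *Chrne* was at 9.39, 12.6, 12.0 and 17.9 CPM in the same order, so the adult subunit was the more abundant of the pair in every library and its highest value was under CORT in GR-mKO muscle. *Chrnd* was at 3.37, 2.57, 6.75 and 4.43 CPM, with all of its changes within 2-fold, the largest being 0.91 (0.57 to 1.45) in GR-mKO muscle under vehicle.

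*Myog* and *Myod1* encode basic helix-loop-helix factors that switch on muscle genes, and *Myog* is also strongly induced by denervation. *Myog* (chromosome 1, 134289989 to 134292548) was at 4.89 CPM on vehicle and 12.6 CPM on CORT in GRfl/fl muscle, and at 13.8 CPM on vehicle and 10.6 CPM on CORT in GR-mKO muscle. GRfl/fl muscle on vehicle lay below the other 3 libraries, which were within 2-fold of each other. *Myog* thus rose with CORT in GRfl/fl muscle (log2 change 1.29, 1.02 to 1.72) and was higher in GR-mKO muscle under vehicle (1.40, 1.15 to 1.84), with changes of -0.36 with CORT in GR-mKO and -0.24 between genotypes under CORT. *Myod1* (chromosome 7, 46376474 to 46379099) was at 36.1, 40.2, 71.6 and 46.03 CPM in the 4 libraries. Its difference between genotypes under vehicle, 0.98 (0.86 to 1.12), lay just under 2-fold, and the other 3 changes were -0.63 to 0.19.

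*Runx1* encodes a transcription factor that denervated fibres induce and that limits their wasting, and *Ncam1* encodes a cell adhesion molecule found along immature and denervated fibres, and also on Schwann cells and satellite cells. *Runx1* (chromosome 16, 92601466 to 92826149) was at 2.34, 1.86, 5.47 and 2.74 CPM in the 4 libraries. It was higher in GR-mKO muscle under vehicle, by a log2 change of 1.07 (0.73 to 1.77), and within 2-fold in the other 3 comparisons. That difference fell just short of 2-fold with a pseudocount of 1 CPM (0.95) and with TMM scaling factors. *Ncam1* (chromosome 9, 49502136 to 49798925) was at 5.41, 5.30, 10.5 and 6.16 CPM, with a difference of 0.89 (0.61 to 1.31) between genotypes under vehicle and -0.72 (-1.10 to -0.44) with CORT in GR-mKO muscle. In both genes vehicle-treated GR-mKO muscle was the high library, and the intervals of the genotype difference under CORT, 0.46 (-0.06 to 1.21) for *Runx1* and 0.20 (-0.18 to 0.60) for *Ncam1*, included 0.

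**Figure D2:**
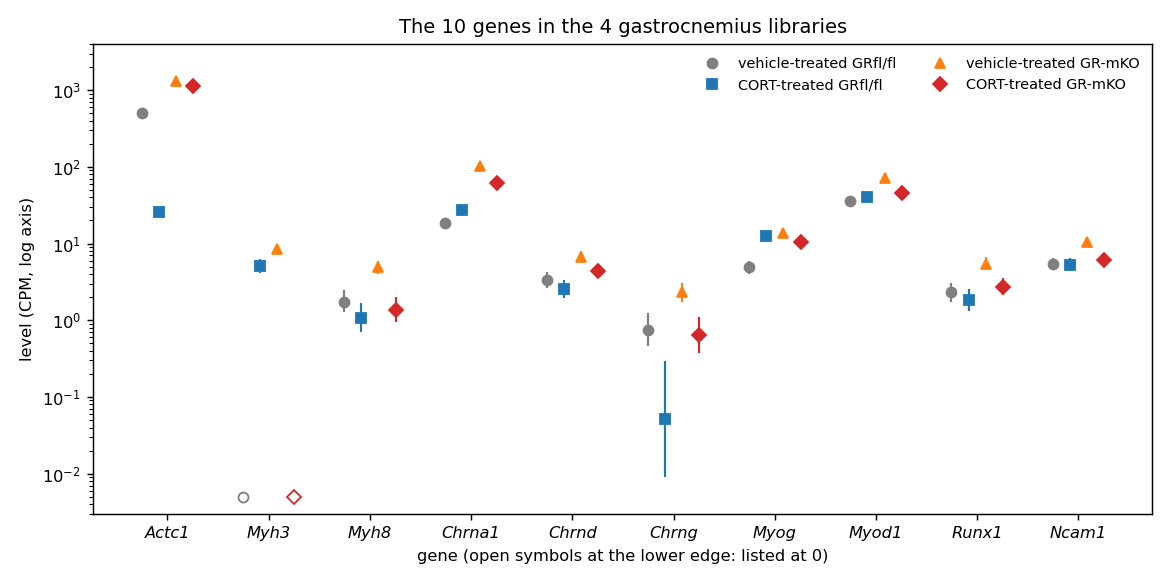
Levels of the 10 genes in the 4 gastrocnemius libraries, in CPM on a log axis; symbols are single libraries (1 pool of 3 mice each), lines are 95% Wilson intervals for counting error, and open symbols at the lower edge are listed at 0. Vehicle-treated GR-mKO muscle (triangles) is the highest library for all 10 genes, and *Actc1* in CORT-treated GRfl/fl muscle lies far below the other 3 libraries.

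All 10 genes had their highest value in vehicle-treated GR-mKO muscle. The lowest value was in CORT-treated GRfl/fl muscle for 6 genes and in vehicle-treated GRfl/fl muscle for 3, with *Myh3* at 0 in 2 libraries. Expressed per kilobase in vehicle-treated GR-mKO muscle, the order was *Actc1* at 890 CPM per kb, *Myod1* at 38.4, *Chrna1* at 23.5, *Myog* at 9.21, *Ncam1* at 4.08 and *Chrnd* at 2.31, with the other 4 between 0.805 and 1.42. *Actc1* was therefore more than an order of magnitude above every other gene of the set in that library, while in CORT-treated GRfl/fl muscle its 17.4 CPM per kb lay below the 21.6 of *Myod1*.

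In the comparison of GR-mKO with GRfl/fl muscle under vehicle, all 10 log2 changes were positive and 7 genes rose, where 7.77% of the 13543 tested genes reached 2-fold, 4.59% higher and 3.18% lower. The median change of the 10 genes was 1.22 and that of all tested genes 0.07, and all 10 changes were positive under each alternative scaling. The 7 were *Actc1*, *Myh3*, *Myh8*, *Chrna1*, *Chrng*, *Myog* and *Runx1*, and the other 3 had changes of 0.89 to 0.98. Since the genes were chosen with these values known, the count describes the set and supports nothing about it.

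Under CORT, 8 of the 10 differences between genotypes were positive, 3 genes (*Actc1*, *Chrna1* and *Chrng*) were higher in GR-mKO muscle and *Myh3* was lower, where 9.71% of all tested genes reached 2-fold, 4.4% higher and 5.31% lower. The median of the 10 genes was 0.35, against 0.02 for all tested genes.

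With CORT in GRfl/fl muscle, 2 genes rose (*Myh3* and *Myog*) and 2 fell (*Actc1* and *Chrng*), where 7.97% of tested genes reached 2-fold, 3.26% higher and 4.72% lower. The median of the 10 genes was -0.15 and that of all tested genes -0.08. The 10 genes did not move together in this comparison: *Actc1* fell 19.5-fold, while *Chrna1*, *Myod1* and *Ncam1* had changes of 0.55, 0.15 and -0.03, the last of which was above 0 with 2 other scalings of the libraries.

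With CORT in GR-mKO muscle, all 10 changes were negative and 3 genes fell (*Myh3*, *Myh8* and *Chrng*), where 6.53% of tested genes reached 2-fold, 1.51% higher and 5.02% lower. The median was -0.74, against -0.10 for all tested genes. All 10 changes were also negative with TMM and median-of-ratios scaling factors, which moved the median of all tested genes to 0.04 and 0.03.

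**Figure D3:**
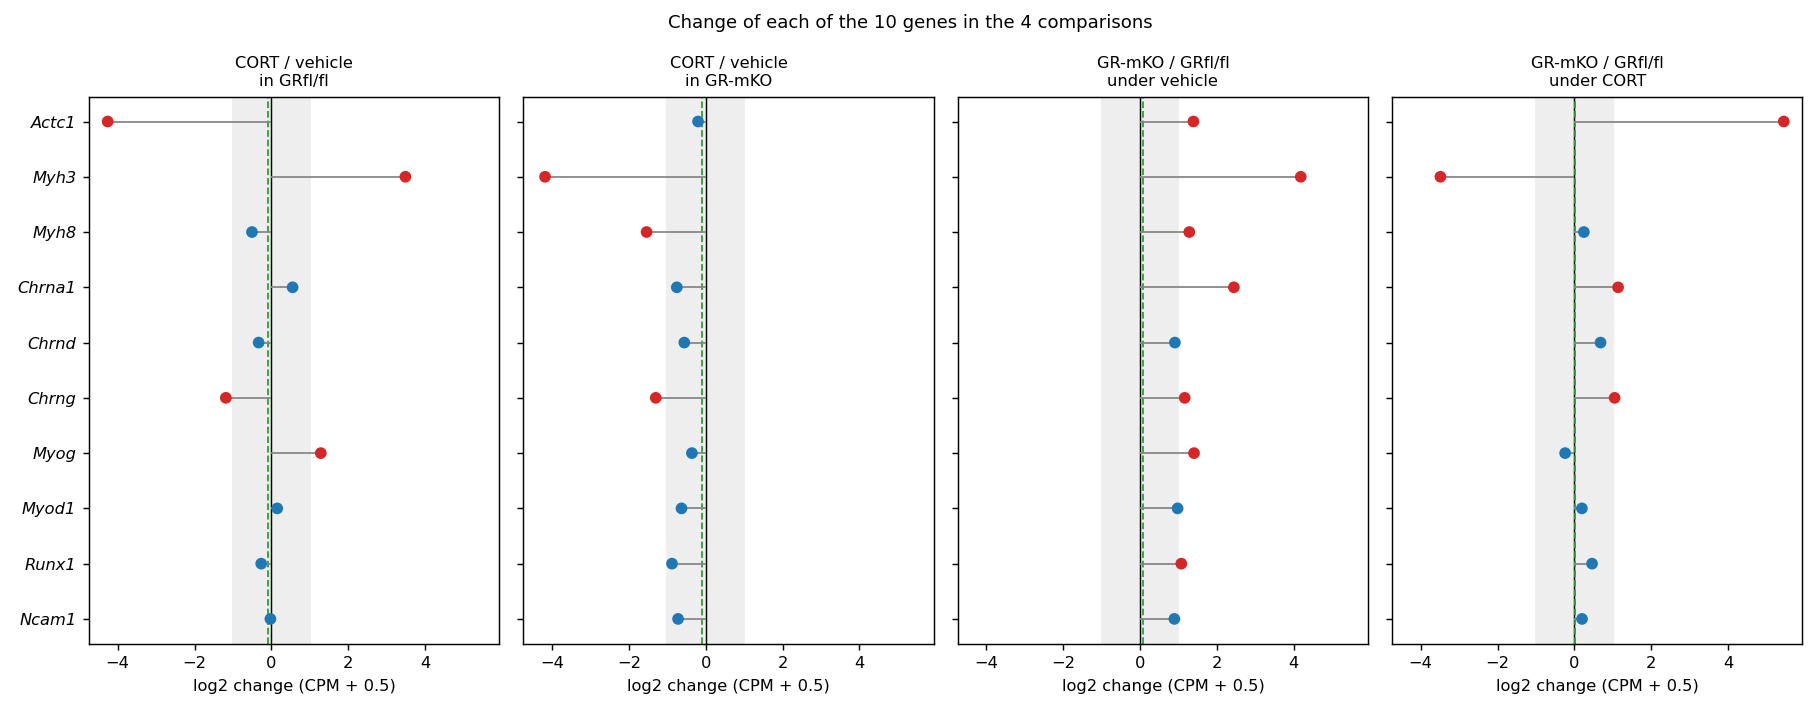
Log2 change of each of the 10 genes in the 4 comparisons, on the log2(CPM + 0.5) scale; red points reached 2-fold, blue points lie within the grey 2-fold band, and the dashed green line is the median of all 13543 tested genes. The 10 genes lie to the right of 0 in GR-mKO against GRfl/fl under vehicle and to the left of 0 with CORT in GR-mKO, and *Actc1* has the largest fall with CORT in GRfl/fl muscle.

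Other genes of developing sarcomeres were compared through a list of 12 that includes *Actc1*, *Myh3* and *Myh8*. Of the 9 others, 6 rose and none fell in GR-mKO muscle under vehicle, with a median of 1.10, and 1 was higher and 2 were lower under CORT. *Myl4*, the embryonic and atrial light chain, was at 5.94, 1.81, 12.8 and 9.28 CPM in the 4 libraries, the same order of libraries as *Actc1*. It fell with CORT in GRfl/fl muscle (log2 change -1.48, -2.31 to -1.17) and was higher in GR-mKO under vehicle (1.04) and under CORT (2.08). *Csrp3*, a Z-disc protein, and *Ankrd1*, a stress-induced titin-binding protein, had another order of libraries. They rose with CORT in GRfl/fl muscle, from 44.2 to 137.5 CPM and from 9.33 to 34.3 CPM, and had changes of 0.25 and -0.11 with CORT in GR-mKO muscle.

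Slow fibre genes were also higher in GR-mKO muscle under vehicle: 9 of 10 rose, with a median of 1.36. *Tnni1*, *Tnnc1* and *Casq2* are on both this list and the developmental sarcomere list and are counted as higher in both, and of the other 7 slow fibre genes 6 rose, with a median of 1.17. *Tnnc1*, the troponin C shared by slow skeletal fibres and heart, was at 38.3, 44.5, 178 and 78.1 CPM in the 4 libraries, and *Tpm3*, the slow tropomyosin, at 51.3, 44.4, 224 and 96.7 CPM. The summed level of the 10 genes was 931, 979, 2300 and 1337 CPM. GR-mKO muscle on vehicle was thus the highest library for this sum too. With CORT in GRfl/fl muscle, where *Actc1* fell, none of the 10 slow fibre genes changed 2-fold and their median was 0.20. Of 11 adult fast fibre genes, *Mylpf*, a fast regulatory light chain, rose and *Myh4*, the fast IIb myosin, fell in GR-mKO muscle under vehicle. *Myh4* was at 35764 CPM in vehicle-treated GRfl/fl and 15392 CPM in vehicle-treated GR-mKO muscle (log2 change -1.22). Fibre type composition of the pools was not measured here, and the part of the slow and fast genes in the levels of the 10 genes was not tested.

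The list of receptor and synapse genes holds 13 besides *Chrna1*, *Chrnd* and *Chrng*. Of these, none rose and 1 fell in GR-mKO muscle under vehicle, with a median of 0.15. The 1 that fell was *Musk*, the receptor tyrosine kinase that organizes the synapse, at 20.9, 14.2, 4.98 and 7.59 CPM in the 4 libraries, a log2 change of -1.97 (-2.40 to -1.75) under vehicle and -0.86 (-1.20 to -0.61) under CORT. *Chrnb1*, the β subunit, was at 34.7, 54.1, 39.7 and 37.0 CPM and within 2-fold throughout. *Ache*, which degrades acetylcholine, was higher in GR-mKO muscle under CORT, at 47.0 CPM against 20.4 CPM (1.19, 1.03 to 1.38).

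The 13 further genes of the denervation response list moved in both directions. In GR-mKO muscle under vehicle, 2 rose and 2 fell, with a median of 0.01. *Sln*, a small inhibitor of the sarcoplasmic calcium pump, went from 2.87 to 27.3 CPM (log2 change 3.04, 2.85 to 3.67), and *Gadd45a*, which denervation induces, from 13.3 to 35.9 CPM (1.39, 1.22 to 1.63). *Musk*, which is also on this list, and *Dach2*, a repressor of *Myog* that denervated muscle reduces, fell. *Dach2* was at 2.47 CPM in vehicle-treated GRfl/fl and 0.251 CPM in vehicle-treated GR-mKO muscle (-1.98). Between genotypes under CORT, none of the 13 was higher and 4 were lower in GR-mKO muscle, with a median of 0.09. With CORT in GRfl/fl muscle, 2 of the 13 rose and none fell. *Cdkn1a*, the cell cycle inhibitor p21, went from 37.3 to 188 CPM (2.32) in GRfl/fl and from 37.5 to 44.6 CPM (0.25) in GR-mKO muscle. The atrophy ubiquitin ligase *Fbxo32* had the highest mean CPM on the list, uncorrected for length, with 287, 913, 316 and 359 CPM in the 4 libraries.

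Of 21 further myogenic regulators, 4 rose and none fell in GR-mKO muscle under vehicle (median 0.32), and with CORT in GR-mKO muscle 3 fell and none rose (median -0.26). *Mymk*, the myoblast fusion protein myomaker, was at 0.454 CPM, 0, 6.09 CPM and 0.640 CPM in the 4 libraries. It was higher in GR-mKO muscle under vehicle (log2 change 2.79, 2.77 to 4.91) and fell with CORT in GR-mKO muscle (-2.53, -4.20 to -2.42), as *Myh8* did. Under CORT, *Mymk* was the 1 of the 21 that was higher in GR-mKO muscle, at 0.640 CPM against a listed 0. *Myh8* stayed within 2-fold there (0.25, -0.52 to 1.23). *Mef2c*, a partner of the myogenic factors and the gene with the highest mean CPM of the list, stayed within 2-fold, at 250 to 393 CPM.

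**Figure D4:**
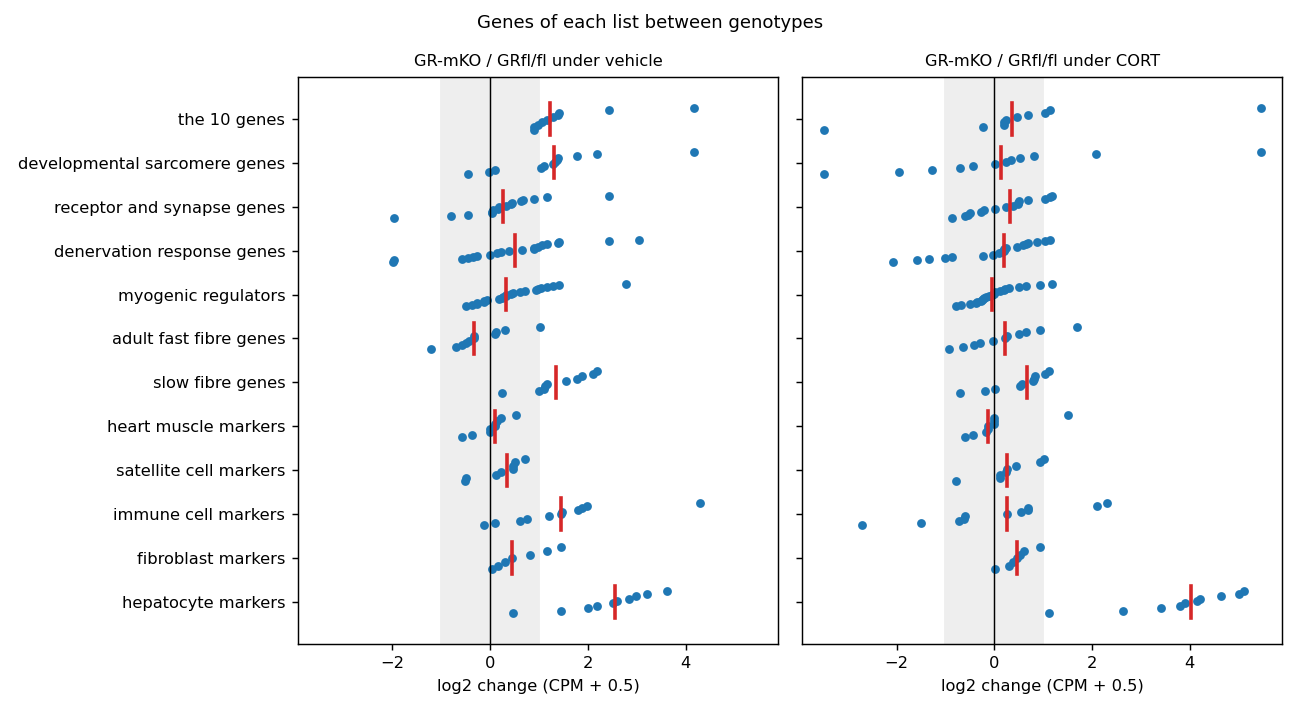
Log2 change between genotypes of the genes of each list, under vehicle (left) and under CORT (right), on the log2(CPM + 0.5) scale; points are genes, red bars are list medians, and the grey band is 2-fold. Under vehicle the medians of the 10 genes (1.22), the developmental sarcomere genes (1.30) and the slow fibre genes (1.36) lie near each other, and the immune (1.45) and hepatocyte (2.55) marker medians lie higher.

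Markers of other cells moved with some of these differences. Hepatocyte markers summed to 44.1, 49.8, 144 and 416 CPM in the 4 libraries, and 9 of 10 were higher in GR-mKO under vehicle and all 10 under CORT. *Alb*, the liver secretory protein albumin, was at 4.13, 7.47, 56.4 and 198 CPM. In liver itself *Actc1* was listed at 0 in 3 libraries and at 0.0479 CPM in the other. Immune cell markers summed to 238, 108, 711 and 164 CPM, with 7 of 11 higher in GR-mKO under vehicle and 8 of 11 lower with CORT in GR-mKO muscle. *Lyz2*, a lysozyme of macrophages, was at 66.2, 67.8, 264 and 109 CPM. Fibroblast markers summed to 1602, 598, 2415 and 851 CPM, and with CORT 4 of 7 fell in GRfl/fl and 5 of 7 in GR-mKO muscle. Adipocyte markers summed to 238, 611, 340 and 476 CPM, with 6 of 7 higher with CORT in GRfl/fl and 5 of 7 in GR-mKO muscle. The part of these markers in the results on the 10 genes was not tested.

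Markers of heart, satellite cells and vessels were measured in the same way. Heart muscle markers, 9 genes that adult skeletal muscle lacks or holds at low levels, summed to 10.2, 6.46, 10.5 and 6.16 CPM, of which *Gja5*, a connexin also made by arterial endothelium, gave 4.94 to 8.63 CPM. *Myh6*, the cardiac α-myosin heavy chain, was at 1.49 CPM, 0, 0.835 CPM and 0.932 CPM, and the other 7 were at or below 0.5 CPM in every library (*Mybpc3*, cardiac myosin-binding protein C, at 0 in all 4), while *Actc1* was at 1312 CPM in vehicle-treated GR-mKO muscle. Satellite cell markers summed to 90.3, 92.4, 100.4 and 99.3 CPM, and none of 8 changed 2-fold between genotypes under vehicle. *Myf5*, *Pax7* and *Cdh15* are also on the list of myogenic regulators. *Myf5*, the satellite cell myogenic factor, was at 3.22, 2.06, 5.60 and 4.38 CPM. Of 8 endothelial and smooth muscle markers, *Des* encodes desmin, which skeletal muscle fibres also hold, and was at 3014 to 3804 CPM. The other 7 summed to 378, 366, 394 and 299 CPM, with 1 of the 8 lower in GR-mKO under vehicle and none past 2-fold in the other comparisons.

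Genes with profiles most like *Actc1* were sought among 9197 others with a mean of at least 5 CPM, by the root-mean-square difference between centred log2(CPM + 0.5) profiles over the 4 libraries. The 5 nearest were *Rin2* (0.25), *Otub2* (0.28), *Mrtfa* (0.44), *Tcn2* (0.56) and *Samd4b* (0.56). All 5 were listed at 0 in CORT-treated GRfl/fl muscle, where *Actc1* had 25.6 CPM, and all have 3 or more protein-coding transcripts. Among the 9102 others above 0 in every library, a restriction chosen after these values were seen, the nearest were *Dbp* (0.68), *Nrep* (0.69), *Cited4* (0.80), *Gamt* (0.95) and *Dupd1* (1.12), and none of the first 5 remained. *Dbp*, a clock output transcription factor, was at 116, 3.37, 150 and 71.3 CPM in the 4 libraries. *Gamt*, which completes creatine synthesis, was at 12.9, 2.27, 28.9 and 24.4 CPM, the same order of libraries as *Actc1*. The likeness of these genes to *Actc1* rests on 4 libraries, with the low value in CORT-treated GRfl/fl muscle as the main feature.

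In liver and WAT most of the set was at the detection limit of 3 counts (0.143 to 0.152 CPM in these libraries) or below it. In liver 7 of the 10 genes stayed below it in all 4 libraries and 5 were at 0 in all 4. In WAT 6 stayed below it and 4 were at 0 in all 4. *Runx1*, which blood cells also make, was at 3.64 to 4.74 CPM in WAT and at 0.0976 to 0.384 CPM in liver. *Ncam1* was at 0.402 to 0.851 CPM in WAT, *Chrna1* at 0.137 to 0.429 CPM and *Actc1* at 0.0506 to 0.551 CPM, so *Actc1* in WAT stayed far below the lowest gastrocnemius value of 25.6 CPM. The tables of liver and WAT list *Myh3* and *Ncam1* under other transcripts than the gastrocnemius table does.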

How the data were processed

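RNA from gastrocnemius, liver and gonadal WAT was sequenced as 12 libraries, each 1 pool of 3 mice. The authors deposited expected counts per gene (estimated counts that need not be whole), quantified against protein-coding GENCODE M20 transcripts (mm10) by Salmon 1.2.1 and summarised by tximport with length-scaled TPM in R 3.5.0. Where a gene name occurred more than once, the entry with the largest total was kept, so each gene is listed under 1 retained transcript. Reads from overlapping or antisense genes could not be separated in these tables.

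Here CPM was the expected count divided by the library total, which for gastrocnemius was 19394572 to 20357253. Log2 changes used a pseudocount of 0.5 CPM, and a change of 2-fold or more was called, over the 13543 genes above 0 in all 4 gastrocnemius libraries. With 1 library per group no test between conditions was made and no p-value is given. The study's own call, a probability from simulated replicates, was not repeated. Intervals (exact Clopper-Pearson for ratios, Wilson for levels, 95%) and the floor of 3 counts cover counting error only. The groups came from the sample labels. The 10 genes, the gene lists and the comparisons were chosen with earlier results of these data known. Of each other list, the genes with the highest mean level and the largest rise and fall in the comparison described were eligible for naming, and further list genes (such as *Myl4*, *Csrp3*, *Ankrd1*, *Gadd45a*, *Ache* and *Tpm3*) were named after their values were seen. Annotation was GENCODE M21 (GRCm38), and promoter windows were from RefSeq (GRCm38.p6), cut to the 250 bases before the start. Scaling factors of edgeR 4.0.16 (TMM) and DESeq2 1.42.0 (median of ratios), other pseudocounts, filters and fold thresholds were tried as alternatives. The result of 1 further marker list is not reported here. The code was tested on simulated data. Python 3.11.15, numpy 2.4.6, pandas 2.3.3, scipy 1.17.1 and R 4.3.3 were used.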

Additional observations from a re-analysis of the deposited data

Results flagged for a closer look

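*Myh3*, *Chrna1*, *Myog* and *Myod1* changed with CORT in opposite directions in the 2 genotypes, and *Myh3* also differed between genotypes in opposite directions under the 2 treatments, in each case with both counting intervals away from 0. With 1 library per group these differences were not tested. For *Myh3* the log2 change with CORT was 3.49 in GRfl/fl and -4.18 in GR-mKO muscle, and the difference of GR-mKO from GRfl/fl muscle was 4.18 under vehicle and -3.49 under CORT. These 4 values set 99.0 or 172 counts against listed values of 0. *Chrna1* changed with CORT by 0.55 in GRfl/fl and by -0.75 in GR-mKO muscle, both within 2-fold. *Myog* changed by 1.29 in GRfl/fl and by -0.36 in GR-mKO muscle. Its difference between genotypes was 1.40 under vehicle and -0.24 under CORT, and the interval of the latter, -0.52 to 0.02, included 0. *Myod1* changed by 0.15 in GRfl/fl and by -0.63 in GR-mKO muscle, both within 2-fold.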

How the results depend on the processing

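No paired analysis was possible because each group has 1 library, and for the same reason no library could be left out. In the order CORT in GRfl/fl, CORT in GR-mKO, GR-mKO under vehicle and GR-mKO under CORT, the genes past the threshold numbered 1080, 885, 1052 and 1315. They became 1672, 1445, 1656 and 2010 with a pseudocount of 0.1 CPM, 3058, 2557, 3255 and 3757 at 1.5-fold, and 135, 101, 112 and 182 at 4-fold. Without the filter on values of 0 they became 1401 with CORT in GR-mKO and 1621 in GR-mKO under vehicle. Of the 10 genes, 2, 1, 2 and 2 passed 4-fold, and 7 passed 1.5-fold with CORT in GR-mKO. In GR-mKO under vehicle 7 of the 10 were past 2-fold, 5 with a pseudocount of 1 CPM and 6 with TMM factors.

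The log2 change of *Actc1* with CORT in GR-mKO was -0.20, and -0.047 with TMM or -0.059 with median-of-ratios factors. In GR-mKO under vehicle it was 1.39, and 1.31 or 1.32. None of the changes of the 10 genes that were past 2-fold reversed under any alternative. With CORT in GR-mKO, the share of calls that were higher went from 23.2% (205 higher, 680 lower) to 35.1% (266 and 492) with TMM and 34.0% (257 and 499) with median-of-ratios factors, and the median of all genes from -0.10 to 0.04 and 0.03. With CORT in GRfl/fl that share went from 40.8% (441 higher) to 51.2% (543 higher) with median-of-ratios factors. In GR-mKO under vehicle it went from 59.1% (622 higher) to 50.8% (513 higher) with TMM and 53.0% (537 higher) with median-of-ratios factors. Of the 5 genes nearest to *Actc1*, 3 stayed with TMM factors. Comparing only genes above 0 in every library, an alternative chosen after seeing the data, left none of the 5. That outcome was fixed in advance, because all 5 were listed at 0 in CORT-treated GRfl/fl muscle. The cause of the other shifts was not tested. Without replicates the spread between mice is unknown, and levels under about 3 CPM rest on fewer than 60 counts.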
